A study of Mus musculus with 6 samples.

Results

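Pericytes and vascular smooth muscle cells are the mural cells of brain vessels. Pericytes sit in the basement membrane of capillaries, where signalling from endothelial PDGF to the receptor encoded by Pdgfrb recruits them. They set capillary tone through ion channels, among them an ATP-sensitive potassium channel, and take part in the blood-brain barrier. Smooth muscle cells wrap arteries and arterioles and hold a contractile apparatus built from actin, myosin and their regulators. The nuclei described here were selected on 6 genes that mark these cells, in single-nucleus RNA counts from mouse brain.

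Wildtype C57BL/6 mice had sham surgery or 5/6 nephrectomy, which removes most of the kidney tissue and is a model of chronic kidney disease, and brain tissue was taken 6 weeks later. All animals of both groups carried the same wildtype genotype, and age and sex are not given in the sources used here. Nuclei were isolated by flow cytometry, captured with a droplet-based 3′ kit and sequenced, giving 3 sham and 3 nephrectomy libraries. The labels do not say whether the libraries of a group came from separate animals, so the p-values measure the spread between these libraries, which may be technical.

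A nucleus was chosen when it had at least 500 detected genes, at most 5% mitochondrial UMIs (unique molecular identifiers, 1 per captured RNA molecule) and at least 3 UMIs summed over Pdgfrb, Rgs5, Atp13a5, Vtn, Notch3 and Abcc9. It could hold at most 2 UMIs of the endothelial genes Flt1 and Cldn5, 2 of the neuron genes Slc17a7, Gad1, Gad2 and Pde10a, 1 of the fibroblast genes Slc6a13, Dcn and Col1a2, and 1 of the astrocyte gene Aqp4. This gate kept 178 of 40685 nuclei that met the first 2 limits, out of 42589 deposited barcodes. The gated nuclei numbered 11, 37 and 63 in sham libraries 1, 2 and 3, and 12, 17 and 38 in nephrectomy libraries 1, 2 and 3. Just inside the threshold, 57 of the 178 nuclei held exactly 3 marker UMIs, and 241 nuclei just outside it held 2 and met every other limit. Of the 577 kept nuclei with at least 3 marker UMIs, 282 were over the neuron limit, 113 over the endothelial limit, 88 over the Aqp4 limit and 57 over the fibroblast limit, with some over several.

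The gated nuclei held 394002 UMIs in all, between 30401 and 110025 per library. Their median UMI count was 2916, 1689 and 1180 in sham 1, 2 and 3 and 3313.5, 2155 and 2511.5 in nephrectomy 1, 2 and 3. No barcode of a gated nucleus occurred among the gated nuclei of another library, and any pair of libraries shared at most 0.451% of the smaller library's barcodes. Sham 3 and nephrectomy 1 stood apart by their barcode lists of 14756 and 12637, against 2637 to 5033 in the other libraries. Neuron RNA (more than 2 UMIs of Snap25, Syt1, Rbfox3 and Grin2a) was present in 44 gated nuclei, and oligodendrocyte RNA (more than 2 UMIs over a set of oligodendrocyte genes) in 34. Nephrectomy 1 was the extreme, with each of these in 8 of its 12 gated nuclei.

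The label of pericytes and smooth muscle held only in part. Many gated nuclei carried astrocyte RNA. Summed over 6 astrocyte genes that the gate did not use (Gja1, Slc7a10, Ntsr2, Fgfr3, Aldh1l1 and Acsbg1), 79 nuclei (44.4%) had at least 3 UMIs, with a median of 8, and 99 nuclei (55.6%) had at most 2, with a median of 0. Most values lay toward the ends, with 81 nuclei at 0 and 57 at 6 or more. The others lay between, 18 of them near the cut (3 at 2 UMIs below it and 15 at 3 or 4 above it). The count was not scaled to depth, and the median depth was 1169 UMIs below the cut and 2808 UMIs above it. This split was chosen after the values were seen and is used only to describe the nuclei.

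Most of the 99 nuclei with at most 2 astrocyte UMIs carried pericyte genes, and some also carried RNA of neurons or oligodendrocytes. More than 2 UMIs of the neuron genes above were found in 23 of the 99 nuclei and in 21 of the 79 others. More than 2 UMIs of the oligodendrocyte genes were found in 20 and 14. Counts of the gate markers are a description, since the gate chose all these nuclei by them. The median marker sum was 8 UMIs in the 99 nuclei, against 3 in the 79 others. Of the 99, 82 had 3 or more different gate markers, against 21 of the 79. Of the nuclei with a single gate marker, 33 of 37 were in the astrocyte-gene set, and the single marker was Pdgfrb in 34 of these 37. At least 1 UMI of 7 pericyte genes outside the gate (Kcnj8, Cspg4, Anpep, Higd1b, Ndufa4l2, Tbx18 and Ebf1) was found in 81 of the 99 nuclei, or 81.8% (exact 95% binomial interval 72.8% to 88.9%), at a median depth of 1169 UMIs. The share was 19.0% (11.03% to 29.38%) in the 79 gated nuclei with astrocyte genes, at the higher median depth of 2808 UMIs. In 2063 other kept nuclei with at least 3 of the same astrocyte UMIs, which serve as background, it was 4.36% (3.52% to 5.34%), at a median of 2018 UMIs. The 7 genes were not particular to the 99 nuclei. In 45 fibroblast-like nuclei, chosen by Slc6a13, Dcn and Col1a2, the share was 62.2% (46.5% to 76.2%), at a median of 1489 UMIs. In 234 endothelial-like nuclei, chosen by Flt1 and Cldn5, it was 36.8% (30.6% to 43.3%), at a median of 1058 UMIs. Intervals here and below cover counting error only.

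**Figure D1:**
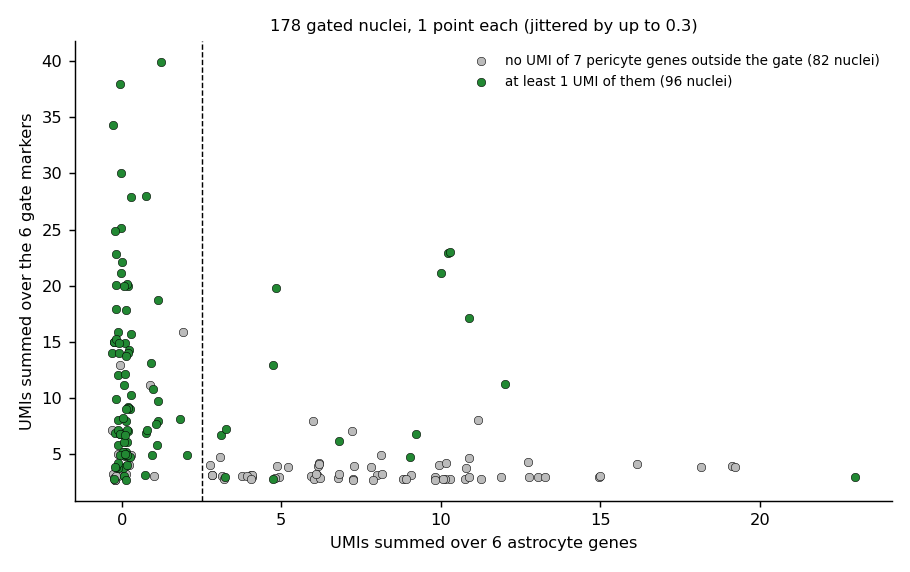
Each point is 1 of the 178 gated nuclei, with UMIs summed over 6 astrocyte genes on the x axis and UMIs summed over the 6 gate markers on the y axis. The dashed line separates the 99 nuclei with at most 2 astrocyte UMIs, most of them green for at least 1 UMI of 7 pericyte genes outside the gate, from the 79 with at least 3, most of them grey and low in marker UMIs.

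Contractile smooth muscle RNA was found in few gated nuclei. Acta2, the smooth muscle actin, and Myocd, the master coactivator of smooth muscle genes, had 0 UMIs in the 178 nuclei. A count of 0 allows a share of up to 1.69% of nuclei with a UMI, and a pooled level of up to 7.61 CPM (the UMIs of a gene per 1000000 summed UMIs). Acta2 had a pooled level of 1.09 CPM in all other kept nuclei, which is below that limit, so its 0 cannot show a difference. Myh11, smooth muscle myosin, had 13 UMIs, of which 11 were in sham 2. Its pooled CPM was 34.9 times that of all other kept nuclei. This ratio was 3.47 for Tagln (9 UMIs), 4.21 for Lmod1 (3 UMIs) and 1.57 for Cnn1 (1 UMI). At least 2 UMIs summed over Acta2, Myh11, Tagln, Cnn1 and Lmod1 were found in 3 of 178 nuclei, or 1.69% (0.349% to 4.85%), all in sham 2, and these 3 nuclei held 16 of the 26 contractile UMIs. A further 10 nuclei lay just under this cut, at 1 UMI. The nuclei are therefore called gated nuclei, and the 99 of them with few astrocyte UMIs are named by that count.

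In the gate, Pdgfrb was the most widely detected marker, in 157 of 178 nuclei (88.2%), with 440 UMIs. Atp13a5, an ATPase of the cation-transporting family enriched in brain pericytes, was found in 104 nuclei (58.4%), and Vtn, the secreted matrix protein vitronectin, in 102 (57.3%). Rgs5, a regulator of G protein signalling, was found in 75 (42.1%), and Notch3, the Notch receptor of mural cells, and Abcc9, the sulfonylurea receptor subunit of the potassium channel, each in 55 (30.9%). Within the nuclei that had Abcc9, 87.3% also had Vtn and 81.8% also had Atp13a5. The gate favours such pairs, since it asks for at least 3 UMIs summed over these markers. The markers differed in how they divided between the 2 kinds of nuclei. Pooled Abcc9 was 661 CPM in the nuclei with at most 2 astrocyte UMIs and 41.4 CPM in those with at least 3, and pooled Rgs5 was 1159 and 91.2 CPM. Pooled Pdgfrb was closer, at 1460 and 899 CPM.

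Levels of the gate markers are a description, since the gate chose nuclei by them. Rgs5 was at 822, 754 and 645 CPM in sham 1, 2 and 3, and at 114, 434 and 270 CPM in nephrectomy 1, 2 and 3. Every nephrectomy library was below every sham library. In the nuclei with at most 2 astrocyte UMIs the Rgs5 groups overlapped, at 2519, 1499 and 1058 CPM in sham and 285, 1061 and 1013 CPM in nephrectomy. Abcc9 was at 230, 480 and 327 CPM in the sham libraries and at 45.6, 380 and 170 CPM in the nephrectomy libraries. These ranges overlapped. Pdgfrb ranged from 1018 to 1522 CPM in sham and from 799 to 1194 CPM in nephrectomy, and Vtn from 905 to 1678 and from 548 to 1113 CPM. Atp13a5 (329 to 877 CPM in sham, 388 to 679 CPM in nephrectomy) and Notch3 (132 to 233 and 114 to 244 CPM) overlapped as well.

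**Figure D2:**
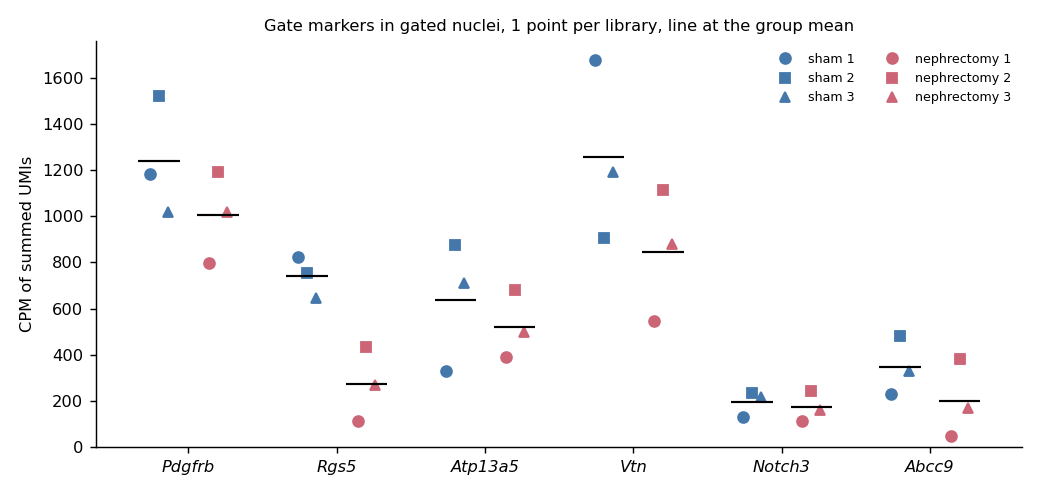
The y axis gives the level of each of the 6 gate markers in CPM of the UMIs summed over the gated nuclei of a library, with 1 point per library (sham blue, nephrectomy red) and a line at each group's mean. Rgs5 is the marker whose 2 groups do not overlap, at 645 to 822 CPM in sham and 114 to 434 CPM in nephrectomy.

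Abcc9 and Kcnj8 encode the regulatory and the pore-forming subunit of the same ATP-sensitive potassium channel, and their genes lie next to each other. In GRCm38, Kcnj8 spans chromosome 6 from 142564837 to 142571614 and Abcc9 from 142587862 to 142702315, both on the minus strand. Kcnj8 was found in 39 gated nuclei and Abcc9 in 55, and 23 nuclei had both, which is 59.0% of the nuclei with Kcnj8 and 41.8% of those with Abcc9. Their promoter windows, from 250 bases before to 50 after the start in RefSeq (build GRCm38.p6), are shown because these neighbouring genes encode the subunits of 1 channel. Capitals mark matches to TGGGAA, the core sequence bound by RBPJ, the DNA-binding partner of Notch receptors, searched on both strands. The Kcnj8 window is chr6:142571565-142571864 and the Abcc9 window is chr6:142702225-142702524, each given on the minus strand.
Kcnj8: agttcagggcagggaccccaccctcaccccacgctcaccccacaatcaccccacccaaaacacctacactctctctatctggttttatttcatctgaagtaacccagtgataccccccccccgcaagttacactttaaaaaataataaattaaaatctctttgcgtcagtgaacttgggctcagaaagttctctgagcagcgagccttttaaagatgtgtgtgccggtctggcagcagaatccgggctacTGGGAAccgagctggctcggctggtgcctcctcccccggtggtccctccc
Abcc9: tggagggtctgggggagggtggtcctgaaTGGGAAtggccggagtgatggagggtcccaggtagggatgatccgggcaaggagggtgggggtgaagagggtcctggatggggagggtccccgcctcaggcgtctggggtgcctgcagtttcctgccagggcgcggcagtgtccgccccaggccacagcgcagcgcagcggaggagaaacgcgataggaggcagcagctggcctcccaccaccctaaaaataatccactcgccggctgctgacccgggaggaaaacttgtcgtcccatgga
The match in Kcnj8 begins at the annotated start, and that in Abcc9 begins 221 bases before it and overlaps GGAATG, the core bound by TEAD factors. Of the 6 gate markers and the 26 other genes of the pericyte list below, 23 of 32 genes had a window, with 32 windows in all. TGGGAA occurred in 8 of these windows (25.0%), against 25.6% of all 32851 windows, and GGAATG in 7 (21.9%), against 14.7%. The forkhead core TGTTTAC was in 4 (12.5%), against 3.65%, and the CArG box, which serum response factor binds in smooth muscle genes, in 0, against 1.63%. A match is a description of the letters and not a binding site.

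Beyond the gate, the genes with the largest ratio of pooled level in gated over all other kept nuclei, among genes with at least 100 UMIs in gated nuclei, were a mixture of both kinds. No test applies, because the gate chose the nuclei by expression. The ratios of the top 20 ran from 6.56 to 50.8. Itga1, an integrin subunit that binds collagen and laminin, led at 50.8, with 188 UMIs, followed by Cald1, the actin-binding protein caldesmon, at 16.0. The manganese exporter gene Slc30a10 stood at 9.97. Ebf1, a transcription factor of pericytes and other lineages, had a ratio of 13.6, and Dlc1, a GTPase-activating protein, of 7.38. Of the 20 genes, 6 had a higher pooled level in the nuclei with at most 2 astrocyte UMIs and 14 in those with at least 3. The 14 included the glutamate transporter gene Slc1a3, the phagocytic receptor gene Mertk and Ndrg2. They also included Fgfr3 and Slc7a10, which belong to the astrocyte genes of the split, so their side was set by the cut.

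The pericyte genes had higher pooled levels in one kind of gated nucleus, as a description with no test. In the nuclei with at most 2 astrocyte UMIs, Kcnj8 was at 354 CPM, against 24.9 CPM in the gated nuclei with astrocyte genes and 0.994 CPM in all other kept nuclei. Itga1 was at 1015 and 137 CPM, Cald1 at 1231 and 133 CPM, and Cspg4, the NG2 proteoglycan of pericytes and oligodendrocyte precursors, at 511 and 70.5 CPM. Rbpms, an RNA-binding protein gene, was at 504 and 66.3 CPM. Conversely, Ndrg2 was at 282 and 1505 CPM, close in the second to its 1292 CPM in the 2063 other nuclei with astrocyte genes. Several pericyte genes were shared with neighbouring vascular cells. Itga1 was at 534 CPM and Ebf1 at 356 CPM in 234 endothelial-like nuclei chosen by Flt1 and Cldn5, where Kcnj8 had 0 UMIs and Cspg4 was at 6.36 CPM. Slc6a20a, a proline transporter gene, was at 741 CPM in 45 fibroblast-like nuclei and 380 CPM in the gated nuclei with few astrocyte UMIs. These levels are per UMI of a 3′ count, and genes are compared between sets of nuclei, not with each other.

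**Figure D3:**
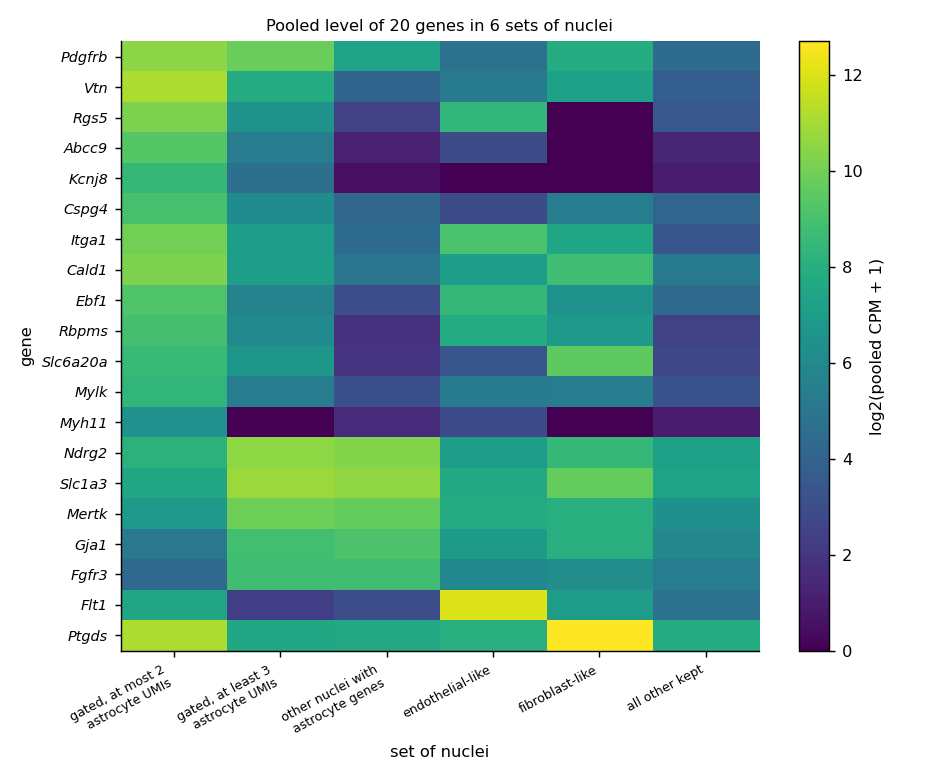
Colour gives log2(pooled CPM + 1) of 20 genes (rows) in 6 sets of nuclei (columns), all libraries pooled, and the last column holds every kept nucleus outside the gate. Kcnj8 and Rbpms are bright in the first column and dim in the next 2. Abcc9 is too, but it is a gate marker, so the gate helped to set its levels. Ndrg2, Slc1a3 and Mertk show the reverse pattern. Gja1 and Fgfr3 do so too, but these columns were chosen by them and other astrocyte genes, which set their pattern in advance.

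Contractile, channel and matrix genes had low counts in the gated nuclei, and not all stood above the level in all other kept nuclei, which serves as background. Mylk, myosin light chain kinase, had 61 UMIs, 51 of them in the nuclei with at most 2 astrocyte UMIs, and its pooled CPM was 19.2 times that of the other kept nuclei. Myl9, a regulatory myosin light chain, had 18 UMIs at a ratio of 36.6. The calcium-gated chloride channel gene Ano1 had 31 UMIs at a ratio of 25.8, and the endothelin receptor gene Ednra had 19 at 20.1. In contrast, Cacna1c, the pore subunit of the L-type calcium channel, had 51 UMIs at a ratio of 0.744. This ratio pools both kinds of gated nuclei and does not decide whether mural cells express the gene. All other kept nuclei held a list of 21 neuron genes at 36424 CPM, against 9310 CPM in the gated nuclei. Its pooled level was 15040 CPM in the gated nuclei with at most 2 astrocyte UMIs and 5682 CPM in those with at least 3. In the nuclei with at most 2 astrocyte UMIs Cacna1c was at a pooled 265 CPM in sham and 157 CPM in nephrectomy. In those with at least 3 it was at 71.8 and 61.6 CPM. Over all gated nuclei, the guanylate cyclase subunit genes Gucy1a1 and Gucy1b1, with 48 and 44 UMIs, were near background at ratios of 1.31 and 1.85. In the nuclei with at most 2 astrocyte UMIs, Gucy1a1 was at a pooled 226 CPM in sham and 236 CPM in nephrectomy. In those with at least 3 it was at 44.9 and 61.6 CPM. Gucy1b1 was at 206 and 276 CPM in the first kind and 8.97 and 61.6 CPM in the second. Further along the cyclic GMP pathway, the kinase gene Prkg1 had 34 UMIs at a ratio of 2.41 and the phosphodiesterase gene Pde5a had 33 at 8.32. Among basement membrane genes, Nid1 had 24 UMIs at a ratio of 25.8 and Lama2 had 56 at 9.46. Over all gated nuclei the collagen genes were at or near background, with 34 UMIs of Col4a1 at 1.93 and 26 of Col4a2 at 0.744. In the nuclei with at most 2 astrocyte UMIs, Col4a1 was at a pooled 177 CPM in sham and 78.7 CPM in nephrectomy. In those with at least 3 it was at 53.8 and 46.2 CPM. Col4a2 was at 157 and 118 CPM in the first kind and 26.9 and 7.70 CPM in the second. The angiotensin receptor gene Agtr1a had 0 UMIs.

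The first comparison asked whether the share of gated nuclei differed between the groups. The share of kept nuclei was 0.429%, 1.22% and 0.461% in sham 1, 2 and 3 (exact 95% intervals 0.214% to 0.766%, 0.864% to 1.68% and 0.354% to 0.589%). It was 0.0981%, 0.393% and 0.780% in nephrectomy 1, 2 and 3 (0.0507% to 0.171%, 0.229% to 0.629% and 0.553% to 1.07%). The highest and the lowest library were thus of different groups, and the middle values overlapped. The mean was 0.705% ± 0.451 in sham and 0.424% ± 0.342 in nephrectomy (SD, n = 3 each), a difference of -0.281 percentage points (exact 2-sided permutation p = 0.4, adjusted over 3 comparisons 0.6). With 3 against 3 libraries this exact test cannot go below p = 0.1. Without sham 2 the difference was -0.0209, and without nephrectomy 1, one of the libraries with a long barcode list, -0.118. Among nuclei with at least 1000 genes the mean share was 0.486% in sham and 0.445% in nephrectomy, a difference of -0.041. Cell sorting, barcode calling and depth can set such a share. After each nucleus was thinned to 1000 UMIs, the shares were 0.278%, 0.739% and 0.213% in sham and 0.0652%, 0.247% and 0.399% in nephrectomy, leaving out nuclei below that depth.

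The share of gated nuclei with astrocyte genes differed between libraries. It was 54.5%, 37.8% and 31.7% in sham 1, 2 and 3 and 58.3%, 52.9% and 60.5% in nephrectomy 1, 2 and 3, so that the ranges overlapped only through sham 1, which has 11 gated nuclei. In nuclei with at most 2 astrocyte UMIs the counts were 5, 23 and 43 in sham and 5, 8 and 15 in nephrectomy. As a share of kept nuclei they made up 0.195%, 0.761% and 0.314% in sham, and 0.0409%, 0.185% and 0.308% in nephrectomy. The part of this composition in the results below was not tested.

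**Figure D4:**
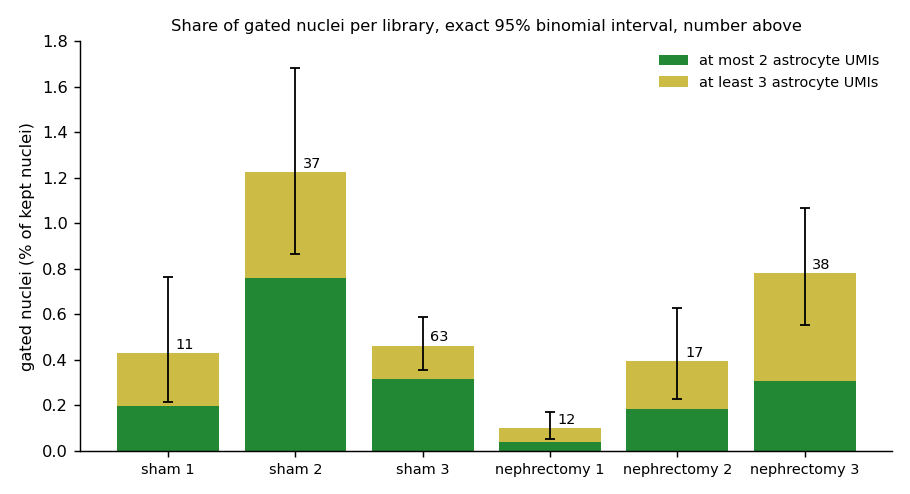
Bars give gated nuclei as a percentage of kept nuclei in each library, split into nuclei with at most 2 (green) and at least 3 (yellow) astrocyte UMIs, with the exact 95% binomial interval of the whole share and the number of gated nuclei. Shares run from 0.0981% in nephrectomy 1 to 1.22% in sham 2, and the intervals overlap for 7 of 15 pairs of libraries.

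The median UMI count of gated nuclei averaged 1928 ± 892 in sham and 2660 ± 593 in nephrectomy (SD, n = 3), a difference of 732 (exact 2-sided permutation p = 0.3, adjusted 0.6). Contractile nuclei, as defined above, made up 2.70% ± 4.68 of gated nuclei in sham and 0% in nephrectomy (exact 2-sided permutation p = 1), and the difference was 0 without sham 2.

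The second comparison was of gene expression, with UMIs summed over the gated nuclei of each library. No gene passed an adjusted p of 0.05. edgeR's quasi-likelihood test, with Benjamini-Hochberg adjustment, called 0 of 854 genes higher and 0 of 854 lower in nephrectomy (0% each), and 8 were higher and 16 lower at an unadjusted p under 0.05. The smallest adjusted p was 0.414. DESeq2's Wald test also called 0 genes, with 1 higher and 11 lower at an unadjusted p under 0.05. The median log2 fold change of the 854 genes (nephrectomy over sham) was -0.03, and their median standard error was 0.40. Without overlap between the 2 groups of libraries, 33 genes were higher (3.86%) and 34 lower (3.98%).

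The genes with the lowest p that were lower after nephrectomy, gate genes aside, were Itga1, Cald1, Phldb2, Raph1 and Cspg4, and none passed. Itga1 (chromosome 13, 114953096 to 115101964) was at 757, 836 and 491 CPM in sham 1, 2 and 3 and at 205, 380 and 270 CPM in nephrectomy 1, 2 and 3. Every nephrectomy library was below every sham library. The log2 fold change was -1.30 ± 0.33 (SE, edgeR adjusted p = 0.414). Cald1 (chromosome 6, 34598500 to 34775473) was at 757, 1014 and 545 CPM in sham and 388, 299 and 350 CPM in nephrectomy. The groups again did not overlap, and the log2 fold change was -1.15 ± 0.33 (edgeR adjusted p = 0.674).

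Cspg4 (chromosome 9, 56865033 to 56899870) was at 428, 398 and 282 CPM in sham and 251, 81.4 and 80.0 CPM in nephrectomy, from 95 UMIs in all. Nephrectomy 1 lay just below sham 3 and the other 2 nephrectomy libraries far below. The fitted change on the log2 scale was -1.47 ± 0.47 (edgeR adjusted p = 0.811). Phldb2, which anchors microtubules at the cell cortex, was at 263, 356 and 218 CPM in sham and 45.6, 190 and 100 CPM in nephrectomy. Raph1, lamellipodin, which acts on actin at the leading edge, was at 362, 384 and 273 CPM in sham and 137, 163 and 130 CPM in nephrectomy. Neither gene's groups overlapped, with log2 fold changes of -1.38 ± 0.43 and -1.25 ± 0.40 (edgeR adjusted p = 0.811 for both). Ebf1, a gene of interest, was at 428, 425 and 273 CPM in sham and 228, 163 and 130 CPM in nephrectomy. The fitted log2 value was -1.13 ± 0.42 and did not pass (edgeR adjusted p = 0.995).

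The genes with the lowest p in the other direction were Srsf1, Cox7c, Pnpla8, AY036118 and Gapdh, and none passed. Srsf1, a splicing factor, was at 164, 247 and 209 CPM in sham and 297, 543 and 470 CPM in nephrectomy, with a log2 fold change of 1.01 ± 0.37. Cox7c, a subunit of cytochrome c oxidase, was at 132, 165 and 145 CPM in sham and 320, 299 and 280 CPM in nephrectomy, with a log2 fold change of 0.97 ± 0.37. Both genes were higher in every nephrectomy library than in any sham library, with an edgeR adjusted p of 0.995. Pnpla8, a phospholipase, had a log2 fold change of 0.87 ± 0.40 and Gapdh, the glycolytic enzyme, of 0.90 ± 0.43. AY036118, a non-coding gene that overlaps ribosomal RNA sequence, had one of 0.65 ± 0.31, and its counts cannot be told apart from ribosomal RNA reads. Gm42418, another such gene, named after its values were seen, was at 0.52 ± 0.25.

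The genes were also described by the kind of gated nucleus. Of the 15 genes outside the gate that were lower at an unadjusted p under 0.05, 14 had a higher pooled CPM in those nuclei than in the gated nuclei with astrocyte genes, as did 4 of the 8 that were higher, beside 419 (49.4%) of all 848 tested genes outside the gate. Taken in the nuclei with at most 2 astrocyte UMIs alone, which held 5 to 43 nuclei per library, edgeR called 0 of 100 genes (0%), with 1 higher and 1 lower at an unadjusted p under 0.05. The log2 fold change was -0.83 ± 0.45 for Itga1, -0.74 ± 0.45 for Cald1, -1.18 ± 0.66 for Cspg4 and -0.54 ± 0.52 for Ebf1 (edgeR adjusted p = 0.929 for each). In the nuclei with at least 3 astrocyte UMIs, 0 of 364 genes were called (0%), with 4 higher and 2 lower at an unadjusted p under 0.05.

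Levels within the nuclei with few astrocyte UMIs showed which genes kept their groups apart. Itga1 was at 1799, 1763 and 722 CPM in sham and 499, 730 and 875 CPM in nephrectomy, so that sham 3 fell among the nephrectomy libraries. Cald1, Cspg4, Ebf1 and Phldb2 overlapped as well. Raph1 did not, at 600, 705 and 386 CPM in sham and 357, 265 and 276 CPM in nephrectomy. Cox7c was at 0, 206 and 168 CPM in sham and at 499, 531 and 507 CPM in nephrectomy, from 43 UMIs, and Srsf1 at 0, 235 and 168 and at 285, 663 and 507 CPM, also from 43 UMIs. The 0 in sham 1 rests on 8336 UMIs in 5 nuclei.

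**Figure D5:**
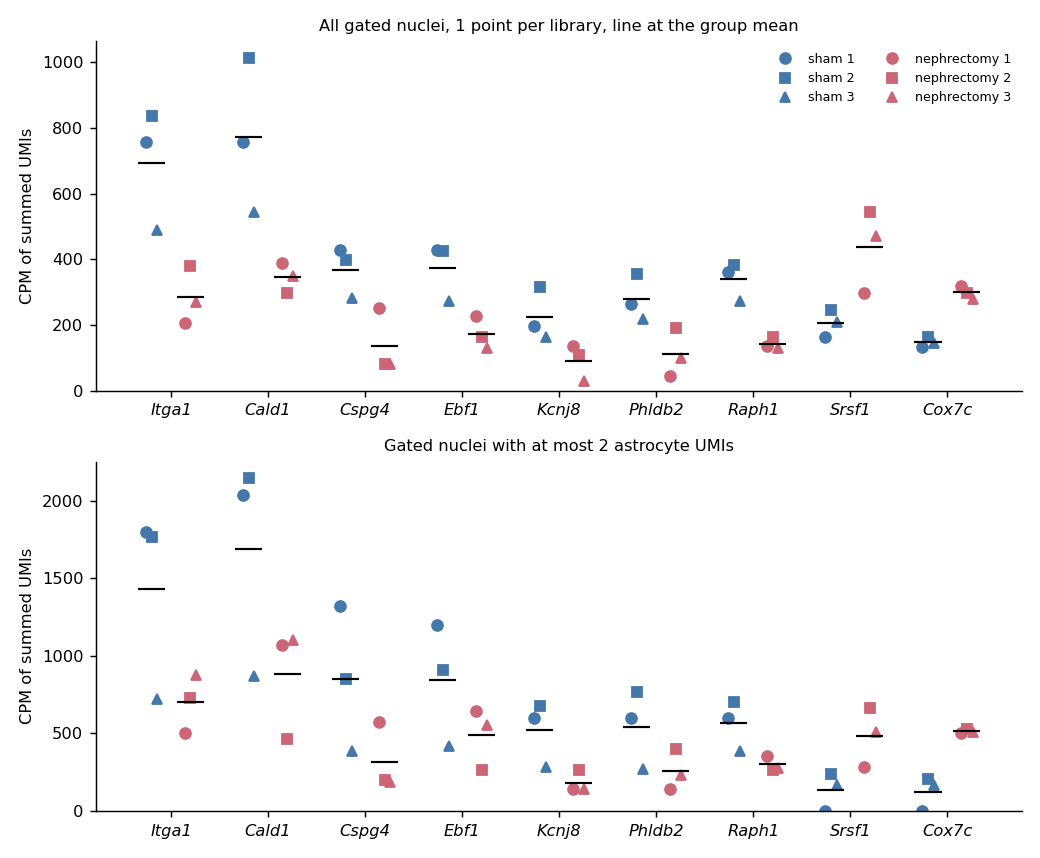
CPM of 9 genes in the UMIs summed per library over all gated nuclei (upper panel) and over those with at most 2 astrocyte UMIs (lower panel), with 1 point per library (sham blue, nephrectomy red) and a line at each group's mean. In the upper panel the groups do not overlap for any of the 9 genes, and in the lower panel they overlap for Itga1, Cald1, Cspg4, Ebf1 and Phldb2.

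Kcnj8, the pore subunit gene, did not reach the count filter. It was at 197, 315 and 164 CPM in sham and 137, 109 and 30.0 CPM in nephrectomy, from 60 UMIs. In the nuclei with at most 2 astrocyte UMIs it was at 600, 676 and 285 CPM in sham and 143, 265 and 138 CPM in nephrectomy, from 45 and 9 UMIs. The groups did not overlap in either set. In a fit of all detected genes it stood at a log2 value of -1.59 ± 0.55 and did not pass (edgeR adjusted p = 0.986). Pde5a, the cyclic GMP phosphodiesterase, was at 132, 151 and 109 CPM in sham and 22.8, 27.1 and 40.0 CPM in nephrectomy, from 27 and 6 UMIs. Cxcl12, a chemokine gene that endothelial-like nuclei carried at a pooled 3437 CPM, had 26 UMIs in sham and 3 in nephrectomy. The gate limits the endothelial genes Flt1 and Cldn5, and the part of this limit in the Cxcl12 counts was not tested. All but 8 of the 46 genes of interest were untested. Among these, Kcnj8, Pde5a, Cxcl12 and Col4a1 were lower without overlap between groups. Nr3c2, which encodes the mineralocorticoid receptor, was higher without overlap, at 0, 27.4 and 36.4 CPM in sham and 45.6, 54.3 and 60.0 CPM in nephrectomy, from 16 UMIs in all. The share without overlap among all genes below the count filter was not counted, so these genes are a description only.

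Of the 46 genes of interest, 8 were tested and none passed. Besides Cspg4 and Ebf1, these included Slc12a2, a sodium-potassium-chloride cotransporter gene, at a log2 fold change of -0.68 ± 0.48, and Itpr1, a calcium release channel gene, at -0.51 ± 0.42. The endocytic receptor gene Lrp1 was at -0.04 ± 0.38, the phosphate exporter gene Xpr1 at 0.15 ± 0.38 and Slc6a20a at 0.08 ± 0.48 (edgeR adjusted p = 0.811 for Cspg4 and 0.995 for the others named). Phosphate is retained in kidney failure, and loss of Xpr1, Slc20a2 or Pdgfrb function is linked to calcification of brain vessels in people. Xpr1 was at 164, 192 and 245 CPM in sham and 297, 190 and 220 CPM in nephrectomy, and Slc20a2, a phosphate importer gene, had 10 UMIs in sham and 8 in nephrectomy. Acta2, Myocd and Agtr1a had 0 UMIs in either group.

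Lists of genes were described by counts and medians. The pericyte list outside the gate had 26 genes, all detected, of which 9 were tested, 1 with a higher and 8 with a lower value (median -1.12), and 0 passed. The median of the tested members was nearer 0 in other sets of nuclei, at -0.32 with at least 5 marker UMIs, -0.30 with at least 1000 genes and -0.54 with equal nuclei per library. Of the 9, 5 did not overlap between groups and were lower, beside 3.98% of all genes tested. The filter keeps genes by their level in either group, so all 26 are given too. Without a filter, 24 of the 26 had a lower value, with a median log2 fold change of -0.76, beside 52.2% of 12287 genes and a median of -0.05. In the nuclei with at most 2 astrocyte UMIs, 22 of the 26 had a lower value, with a median of -0.63, beside 61.1% of 9355 genes and a median of -0.22. The list's summed level was 4770, 6375 and 3926 CPM in sham and 2397, 3176 and 2781 CPM in nephrectomy, without overlap. In the nuclei with at most 2 astrocyte UMIs it was 13796, 12931 and 5978 CPM in sham and 5563, 5903 and 8704 CPM in nephrectomy, where the ranges overlap.

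The other lists of mural biology had few genes at testable counts, and 0 members passed in any of them. Of 29 contractile and smooth muscle genes, 26 were detected and 3 tested (1 higher, 2 lower, median -0.42). Of 34 ion channel and calcium handling genes, 7 were tested (3 higher, 4 lower, median -0.18), and of 40 vasoactive receptor and cyclic GMP genes, 4 (1 higher, 3 lower, median -0.58). The list for PDGF, Notch, TGF-beta and angiopoietin signalling had 46 genes, with 3 tested (2 higher, 1 lower), and that for basement membrane and matrix had 44, with 3 tested (1 higher, 2 lower). Phosphate transport and calcification had 26 genes, with 3 tested, all with a higher value (median 0.41), while without a filter 8 of 14 were higher (median 0.19), beside 47.8% of all 12287 genes. Inflammation and interleukin-1 response had 35 genes, with 0 tested. Solute carriers of mural cells had 24 genes, with 7 tested (4 higher, 3 lower, median 0.05), while without a filter 14 of 21 were lower (median -0.60), beside 52.2% of all genes. The hypoxia and stress list had 34 genes, with 4 tested (1 higher, 3 lower). Without a filter, the lists not yet given so also had more lower than higher values. Lower were 13 of 21 contractile genes (median -0.62), 21 of 31 ion channel genes (-0.35) and 18 of 25 vasoactive genes (-0.40). So were 22 of 41 signalling genes (-0.12), 23 of 36 matrix genes (-0.20), 14 of 24 inflammation genes (-0.26) and 20 of 27 hypoxia genes (-0.52). The median of all 12287 genes was -0.05.

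Genes of cell energy and translation gave no call. Of 37 respiratory chain genes, 4 were tested, all with a higher value (median 0.38), while without a filter 24 of 37 were higher (median 0.37), beside 47.8% of all genes. Of 47 ribosomal protein genes, 6 were tested (4 higher, 2 lower, median 0.14). The respiratory chain list summed to 2796, 2893 and 2608 CPM in sham and 4907, 2633 and 3131 CPM in nephrectomy, where nephrectomy 1 was the highest and nephrectomy 2 lay among the sham libraries. The 13 mitochondrially encoded genes, limited by the gate to 5% of UMIs, had 4 tested (3 higher, 1 lower, median 0.16). Haemoglobin genes summed to 9.09 to 65.8 CPM in sham and 54.3 to 70.0 CPM in nephrectomy, from 16 UMIs.

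Markers of other cells varied between libraries beside these results. All 16 genes of the astrocyte list were detected, and its sum ranged from 12388 to 16272 CPM in sham and from 12736 to 17914 CPM in nephrectomy. The 11 tested members had a median log2 fold change of 0.28 (8 higher, 3 lower, 0 passing). The neuron list of 21 genes ranged from 4222 to 15687 CPM in sham, highest in sham 3, and from 5491 to 14549 CPM in nephrectomy. All 17 oligodendrocyte genes were detected, at 395 to 2262 CPM in sham and 434 to 4177 CPM in nephrectomy. The 14 oligodendrocyte precursor genes, which matter for Cspg4, ranged from 936 to 2138 CPM and from 1466 to 1826 CPM. Endothelial genes, of which 1 of 20 was at 0 UMIs, ranged from 757 to 864 CPM in sham and from 274 to 670 CPM in nephrectomy, without overlap. Microglial genes ranged from 0 to 227 CPM and from 54.3 to 290 CPM. The part of these lists in the results was not tested.

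In the fibroblast or leptomeningeal list, 7 of 20 genes were at 0 UMIs, and a single nucleus set the level. Ptgds, a prostaglandin synthase gene of the leptomeninges, had 391 UMIs in the gated nuclei, of which 276 came from 1 nucleus of nephrectomy 3 and 47 from 1 nucleus of sham 2. Its level was 0, 781 and 218 CPM in sham and 297, 299 and 2861 CPM in nephrectomy. The log2 fold change was 1.76 ± 1.37 (edgeR adjusted p = 0.995). With at least 5 marker UMIs required, which left sham 2, sham 3 and nephrectomy 3, it was 5.42 ± 0.61 and passed (edgeR adjusted p = 4.0e-15). With limits on oligodendrocyte, microglia and neuron RNA, which left the same 3 libraries, it was -4.01 ± 0.72 and also passed (edgeR adjusted p = 4.4e-05).

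A further comparison set the nephrectomy effect in gated nuclei against that in endothelial-like nuclei of the same libraries. Sham 1, with 6 endothelial-like nuclei, was left out. In an edgeR model with library as a block and an interaction of nucleus type and group, 1 of 1840 genes was called (0.0543%). This was Gjc3, a connexin gene of oligodendrocytes (log2 interaction 8.10 ± 1.37, edgeR adjusted p = 0.0017). Its UMIs in gated nuclei were 6 and 14 in sham 2 and 3 and 30, 3 and 23 in nephrectomy 1, 2 and 3. In endothelial-like nuclei they were 3 and 42 in sham and 0 in each nephrectomy library, so the size of the interaction depends on counts of 0. Without nephrectomy 1 or without nephrectomy 3 no gene was called, with 103 and 54 genes at an unadjusted p under 0.05. Without sham 3, which leaves 1 sham library assumed to vary like the others, Gjc3 was not called, and Hbb-bs and Hba-a1 were. For the genes named above the interaction was -1.15 ± 0.53 for Itga1 and -0.27 ± 0.77 for Cald1 (edgeR adjusted p = 0.991 and 0.993), so no difference between the 2 nucleus types was shown for them.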

How the data were processed

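Counts were the deposited matrices of UMIs per gene and barcode, whole numbers that the authors made with introns included and mm10 as the genome, per the labels' protocols and the submitters' processing notes. Cell Ranger appears as 6.0.1 per the file headers, as 2.1.1 per the submitters' processing notes and as 3.0 per the extract protocol, and the barcode filter is not given in the sources used here. The gate, the lists and the tests were chosen with earlier results of these data known. No doublet caller was run, and barcodes with RNA of several cell types were limited only by the gate. Nuclei are not replicates, so UMIs were summed per library and compared by the 2-sided quasi-likelihood test of edgeR 4.0.16 (TMM factors, filterByExpr, robust fit), called at a Benjamini-Hochberg adjusted p under 0.05, on libraries with at least 10 gated nuclei (5 for the split by astrocyte genes). This was tested on simulated data, with a fixed dispersion and without the filter step. Most simulated 2-fold changes were not called there, so a count of 0 genes does not exclude changes of that size. CPM are UMIs of a gene per 1000000 summed UMIs. Shares and median UMIs were compared by exact 2-sided permutation tests. Alternatives were DESeq2 1.42.0, other filters and gates, the replicate number as a block, and leaving out each library. The split by astrocyte genes and its fits were added after the data were seen. Genes named are the gate markers (no test), the 5 lowest p per direction, 46 genes of interest, some not reported here, the 20 highest ratios, of which the leading ones are given, and genes said to be chosen after their values were seen: Gm42418, Ptgds, Gjc3 and Rbpms. Coordinates are from GENCODE M21 and promoter windows from RefSeq.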

Additional observations from a re-analysis of the deposited data

Results flagged for a closer look

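One result differed between nucleus types by the test of the difference itself. Gjc3 had a log2 interaction of 8.10 ± 1.37 between gated and endothelial-like nuclei (edgeR adjusted p = 0.0017). In gated nuclei its level was 82.3 and 127 CPM in sham 2 and 3 and 685, 81.4 and 230 CPM in nephrectomy 1, 2 and 3, so nephrectomy was higher in 2 of 3 libraries. In endothelial-like nuclei it was 42.6 and 324 CPM in sham and 0 CPM in each nephrectomy library. The call was lost without nephrectomy 1, without nephrectomy 3, without sham 3 and in the 4 libraries with short barcode lists. Nephrectomy 1 had the highest summed level of the oligodendrocyte list in gated nuclei, at 4177 CPM, and 8 of its 12 gated nuclei were above the limit on oligodendrocyte RNA, whose part in the result was not tested. In gated nuclei alone it did not reach the count filter. Groups of 3 libraries are too small for a check of single outlying libraries.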

How the results depend on the processing

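No gene was called under DESeq2 size factors, the DESeq2 Wald test, no filter, each library left out in turn (0 to 0), the 4 libraries with short barcode lists, at least 2 different markers, at least 1000 genes, equal nuclei per library, no contractile nuclei or either side of the astrocyte split, and under the replicate block 0 were called (smallest adjusted p 0.933). Same-numbered libraries did not deviate together (correlations -0.0535, -0.0724 and -0.282), so no pairing by number was seen. Sums over so few nuclei cannot exclude one. With at least 5 marker UMIs 1 gene, Ptgds, was called, and with limits on oligodendrocyte, microglia and neuron RNA 6 were. Both settings leave 1 nephrectomy library, assumed to vary like the 2 sham libraries. In the second, Cspg4 (-2.10, edgeR adjusted p = 0.048) and Slc12a2 (-2.44, 0.047) passed, over a range of adjusted p up to 0.997 and 0.999 across settings.

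The interaction gave 2 calls without a filter (Gjc3 and Hba-a1), 2 in the 4 libraries with short barcode lists (Hba-a1 and Meg3) and 0 to 2 with a library left out (0 without nephrectomy 1 or 3, and 2, Hbb-bs and Hba-a1, without sham 3). The difference in share ran from -0.459 to -0.0209 percentage points with a library left out, that in contractile nuclei from -4.05 to 0, and that in median UMIs from 358 (357.5) to 1226 (1225.5). Among genes that did not pass, the log2 fold change turned direction for Itpr1 (0.0021 with at least 5 marker UMIs), for Lrp1 (-0.35 to 0.24), Xpr1 (-0.0074 to 0.29) and Slc6a20a (-0.16 to 0.62) with a library left out, and for Xpr1 with the limits on other RNA (-0.040). The cause was not tested. Sums of 30401 to 110025 UMIs per library left most pericyte genes under the count filter.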
